A study of Mus musculus with 8 samples.

Results

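Neurotransmitter receptors and ion channels were examined as a set of genes in mouse spermatogonia, the mitotic germ cells of the testis, with and without the histone demethylase Kdm1a. The set was chosen by gene symbol and took in ionotropic and metabotropic glutamate receptors, nicotinic and GABA-A receptors, potassium, sodium and calcium channels, CLC and CLIC chloride proteins and TRP channels. The RNA antisense to Kcnq1 named Kcnq1ot1, and Kcnk9, were left out. Of 17589 genes in the table, 133 had such a symbol, and 59 of them averaged at least 1 FPKM over the 8 libraries. FPKM are fragments per kilobase of transcript scaled to the size of the library, so that levels can be compared between genes. These 59 members were tested among 13483 genes that met the same minimum, and the other 74 lay below it.

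The study compared 4 KDM1A KO libraries with 4 Control libraries to see how loss of the enzyme changes expression in spermatogonia after birth. All libraries came from C57BL/6 mice at 6 dpp (days after birth) with the GOF/deltaPE-Oct4/GFP transgene, in which Oct4 (Pou5f1) regulatory sequence without the proximal enhancer drives GFP, and the cells were collected by sorting for GFP after the testes were digested to single cells. The protocol calls the knockout conditional (Kdm1a-cKO); the Cre driver, the alleles of the Control mice and whether each library is a separate animal are not stated. The p-values therefore cover only the scatter of these libraries, part or all of which could be technical. In bulk libraries, fewer cells that express a gene and less RNA per cell cannot be told apart.

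Ligand-gated receptors open a pore, or for the metabotropic class signal through G proteins, when they bind a transmitter such as glutamate, acetylcholine or GABA. Voltage-gated channels open when the membrane potential changes, and most are assembled from a pore-forming subunit and auxiliary subunits that set its trafficking and gating. Many of these genes are best known from neurons and muscle, but chloride channels, TRP channels and a sperm-specific potassium channel are also studied in the male germ line.

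Library depth, read from the steps between low FPKM values, was about 45500000 to 63000000 fragments in KO libraries and 60750000 to 67000000 in Control libraries. Kdm1a, the targeted gene, had 14.2, 14.1, 17.3 and 14.9 FPKM in KO replicates 1 to 4, against 53.7, 54.0, 92.0 and 48.1 FPKM in Control replicates 1 to 4 (4.1-fold lower, log2 change -1.92, limma adjusted p = 6.88e-05). The groups did not overlap. Correlations of log2(FPKM + 1) over the tested genes were 0.949 to 0.982 among KO libraries, 0.967 to 0.981 among Control libraries and 0.910 to 0.948 between groups; KO replicate 2 stood apart from the other KO libraries. It held the lowest KO value of 27 members and the highest KO value of 21. All 10 germ cell markers checked were found, and their summed level was 863 to 955 FPKM in KO libraries and 977 to 1031 FPKM in Control libraries, with Zbtb16, Sall4 and Lin28a called lower and Dppa3 called higher.

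Markers of other cell types summed to less than those of germ cells. The endothelial and erythroid sums lay higher in every KO library than in any Control library. Sertoli markers (11 of 11 found) summed to 45.7, 24.0, 62.7 and 55.1 FPKM in KO replicates 1 to 4, against 52.5, 17.3, 18.1 and 23.5 FPKM in Control replicates 1 to 4. Only Control replicate 1 lay within the KO range. None of the 8 Sertoli markers tested was called, and their median log2 change was 0.46. The 5 endothelial markers summed to 12.6 to 13.3 FPKM in KO libraries and 5.11 to 6.70 FPKM in Control libraries, and Pecam1 and Tek rose. Neuronal markers (4 of 6 found) summed to 2.62 to 3.31 FPKM in KO libraries and 1.65 to 2.63 FPKM in Control libraries, and Schwann cell markers (3 of 4 found) to 4.37 to 5.91 FPKM in KO libraries and 4.14 to 4.59 FPKM in Control libraries. The erythroid markers (2 of 3 found) summed to 1.60 to 2.50 FPKM in KO libraries and 0.282 to 0.760 FPKM in Control libraries. Leydig (1 of 6 found), peritubular myoid (5 of 5) and macrophage (1 of 6) sums lay between 1.14 and 7.26 FPKM in both groups and overlapped, and no found marker was at 0 in all libraries. Their part in the values below was not tested.

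Members of the set were lowly expressed, with a median level of 3.98 FPKM against 11.8 FPKM for all genes tested, and 16 of the 59 reached 10 FPKM. In KO spermatogonia 18 members fell and 13 rose at an adjusted p under 0.05, while 28 were not called. The falls were 30.5% of the members, against 12.1% of all genes tested. The rises were 22.0% of the members, against 25.3% of all genes tested. The 4 KO values lay wholly below the 4 Control values in 18 members (12.5% of all genes tested did so) and wholly above them in 10 (26.1% of all genes). Changes of at least 1 on the log2 scale were met by 7 falls (background 1.15%) and 4 rises (background 4.56%). Of these falls, Grik3, Chrna4 and Grm4 passed the minimum level only through their Control level. None of these rises passed it only through its KO level. The median log2 change was 0.00 over the members and 0.09 over all genes tested. Without KO replicate 2, 13 members rose and 20 fell (28.6% and 15% of all genes tested).

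The minimum level kept some members in through 1 group. Grik3, Grm4, Chrna4 and Kcnd3 passed through their Control level, with KO means under 1 FPKM, and Trpv2, Scn7a and Kcnv2 passed through their KO level. The other 52 averaged at least 1 FPKM in both groups. Just inside the minimum lay Kcnv2, at 1.3 FPKM in KO libraries and 0.780 FPKM in Control libraries, and Trpv2, at 1.57 FPKM in KO libraries and 0.619 FPKM in Control libraries. Just outside it lay Kcnip3, a calcium-binding partner of A-type potassium channels, at 0.359 FPKM in KO libraries and 1.61 FPKM in Control libraries, and Kcnj10 at 1.32 FPKM in KO libraries and 0.578 FPKM in Control libraries.

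**Figure D1:**
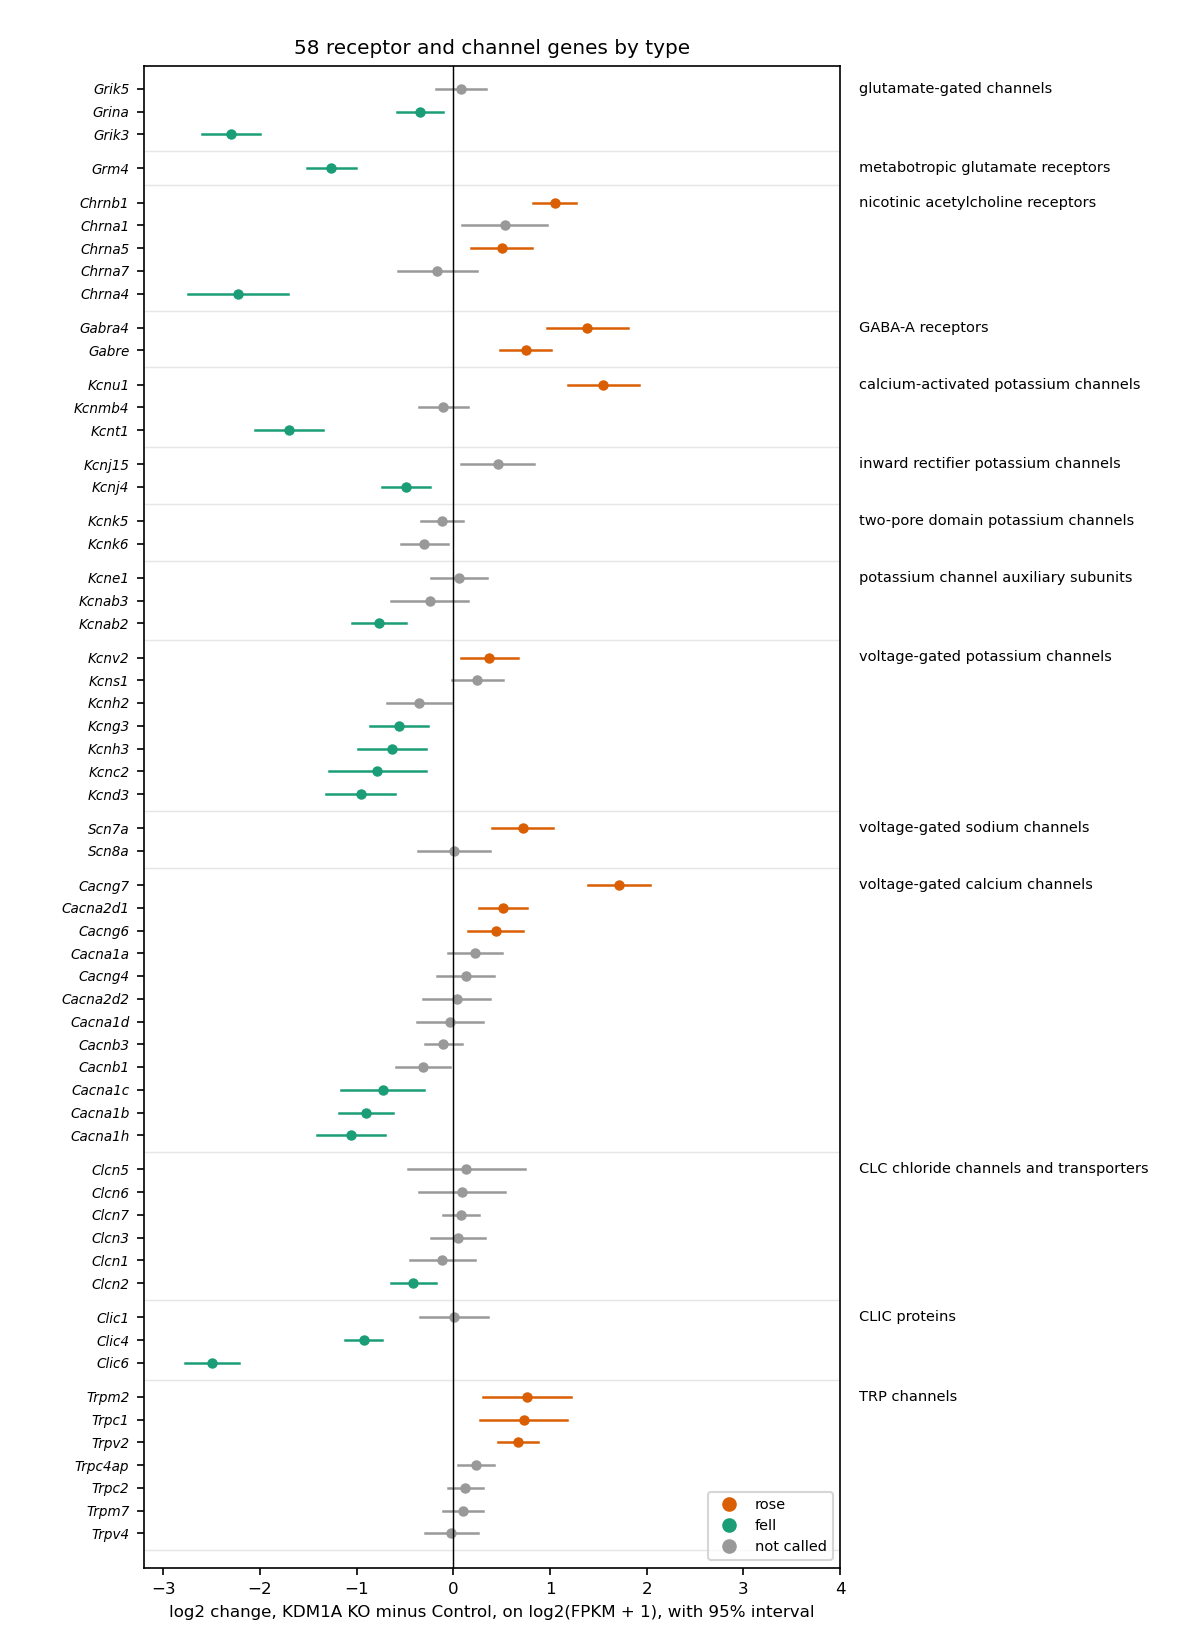
Log2 change of 58 of the 59 members (x axis, KDM1A KO minus Control on log2(FPKM + 1); bars are 95% intervals from limma), grouped by channel type from top to bottom. Rises and falls occur together in 4 of the types as drawn, and the falls reach -2.50 (Clic6) while the rises reach 1.71 (Cacng7).

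Of 4 genes with glutamate receptor symbols, 3 fell and none rose (12.1% and 25.3% of all genes tested). Grik3, a subunit of kainate-type glutamate receptors on chromosome 4 (125490700 to 125714173, plus strand, GRCm38), had 0.593, 0.423, 0.604 and 0.632 FPKM in KO replicates 1 to 4, against 6.81, 8.78, 5.83 and 5.69 FPKM in Control replicates 1 to 4. Every KO library was below every Control library, a 12-fold lower mean (log2 change -2.30, SE 0.13, limma adjusted p = 6.77e-06). Grik5, a kainate subunit that works only together with a partner such as Grik3, did not pass the test: it averaged 3.69 ± 0.172 FPKM in KO libraries and 3.47 ± 0.618 FPKM in Control libraries (SD, n = 4 each, as for all means below; 95% interval of the log2 change -0.18 to 0.34). Grm4, a metabotropic receptor that couples to inhibitory G proteins, fell 6.56-fold, with 0.188, 0.423, 0.452 and 0.283 FPKM in KO libraries, against 2.42, 1.75, 2.49 and 2.17 FPKM in Control libraries (log2 change -1.26, limma adjusted p = 4.76e-05). The groups were apart, although all 4 KO values lay under 1 FPKM.

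Grina also carries a glutamate receptor name, but encodes an NMDA receptor-associated membrane protein and no receptor subunit. It fell by 0.34 on the log2 scale, with means of 10.8 ± 1.08 FPKM in KO libraries and 14 ± 1.64 FPKM in Control libraries (limma adjusted p = 0.0313; log2 change 0.33 with equal totals). This call was lost without KO replicate 1 (adjusted p = 0.0731) or 4 (0.0712), and without Control replicate 2 (0.076) or 3 (0.0889). Below the minimum level, the kainate subunit Grik4 averaged 0.297 FPKM in KO libraries and 0.802 FPKM in Control libraries, and the NMDA receptor subunit Grin2d 0.474 FPKM in KO libraries and 0.958 FPKM in Control libraries. Gria4, a subunit of AMPA receptors, lay the other way, at 0.806 FPKM in KO libraries and 0.174 FPKM in Control libraries. None of these 3 overlapped between groups, of 4 glutamate-gated genes under the minimum. Among all 4106 genes under the minimum, every KO library lay above every Control library in 28.8% and below in 9.13%.

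Nicotinic receptor subunits moved in opposite directions. Chrna4, which with Chrnb2 forms the main high-affinity nicotine receptor of the brain, had 0.701, 0.225, 0.825 and 1.23 FPKM in KO replicates 1 to 4, against 6.49, 4.61, 8.21 and 9.55 FPKM in Control replicates 1 to 4. All KO values were lower, with KO replicate 2 the lowest (9.68-fold lower mean, log2 change -2.23, SE 0.23, limma adjusted p = 0.000101). Its usual partner Chrnb2 was below the minimum level in both groups, at 0.680 FPKM in KO libraries and 0.882 FPKM in Control libraries. Chrnb1, the beta subunit of the muscle receptor, had 3.42, 3.69, 4.03 and 3.30 FPKM in KO libraries, against 1.14, 1.5, 1.12 and 1.16 FPKM in Control libraries. It rose 2.93-fold without overlap (log2 change 1.05, limma adjusted p = 6.2e-05), and its coding transcript entry carried 85.1% of the KO level.

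Chrna1, the muscle alpha subunit that binds acetylcholine, averaged 3.74 ± 1.43 FPKM in KO libraries and 2.18 ± 0.289 FPKM in Control libraries and was not called (log2 change 0.53, limma adjusted p = 0.0596). Without KO replicate 4, its lowest KO value, the adjusted p was 0.0176, and without any other library it was 0.0584 to 0.14. Chrna5, an accessory subunit that does not form a receptor by itself, rose to 3.21 ± 0.619 FPKM in KO libraries, against 1.97 ± 0.403 FPKM in Control libraries (log2 change 0.50, limma adjusted p = 0.0212), with KO replicate 2 below Control replicate 1. The Chrna5 call was lost without any of KO replicates 1 and 4 and Control replicates 2 and 4, with adjusted p between 0.051 and 0.0591, and with small RNAs removed (0.135). Chrna7, which forms receptors of a single subunit type, was not called, at 1.85 ± 0.555 FPKM in KO libraries and 2.18 ± 0.554 FPKM in Control libraries (95% interval -0.57 to 0.24). Under the minimum level, Chrnb4 averaged 1.15 FPKM in KO libraries and 0.347 FPKM in Control libraries, and Chrna9 0.437 FPKM in KO libraries and 0.0234 FPKM in Control libraries, both without overlap. Of 6 nicotinic genes under the minimum, 3 lay wholly higher in KO libraries and 1 wholly lower (28.8% and 9.13% of all such genes). The sum over the 5 tested subunits was 13.1 ± 0.588 FPKM in KO libraries and 14.8 ± 1.88 FPKM in Control libraries.

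Both GABA-A receptor subunits tested rose (25.3% of all genes tested did so). Gabra4, an alpha subunit typical of receptors outside synapses, had 8.72, 4.04, 5.61 and 7.42 FPKM in KO replicates 1 to 4, against 1.82, 1.99, 1.58 and 1.70 FPKM in Control replicates 1 to 4. The KO values spread more widely than the Control values but did not reach them (3.64-fold higher mean, log2 change 1.38, SE 0.19, limma adjusted p = 0.000493). Gabre, the X-linked epsilon subunit, rose to 2.39 ± 0.401 FPKM in KO libraries, against 1.01 ± 0.159 FPKM in Control libraries (log2 change 0.75, limma adjusted p = 0.00103). Complete GABA-A receptors also need beta subunits. Gabrb2 had 1.37, 0.238, 0.534 and 0.753 FPKM in KO libraries, against 0.0126, 0.0299, 0.0116 and 0.00857 FPKM in Control libraries, and stayed under the minimum. The theta subunit Gabrq averaged 0.827 FPKM in KO libraries and 0.273 FPKM in Control libraries, and the gamma subunit Gabrg3 0.0664 FPKM in KO libraries and 0.214 FPKM in Control libraries.

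**Figure D2:**
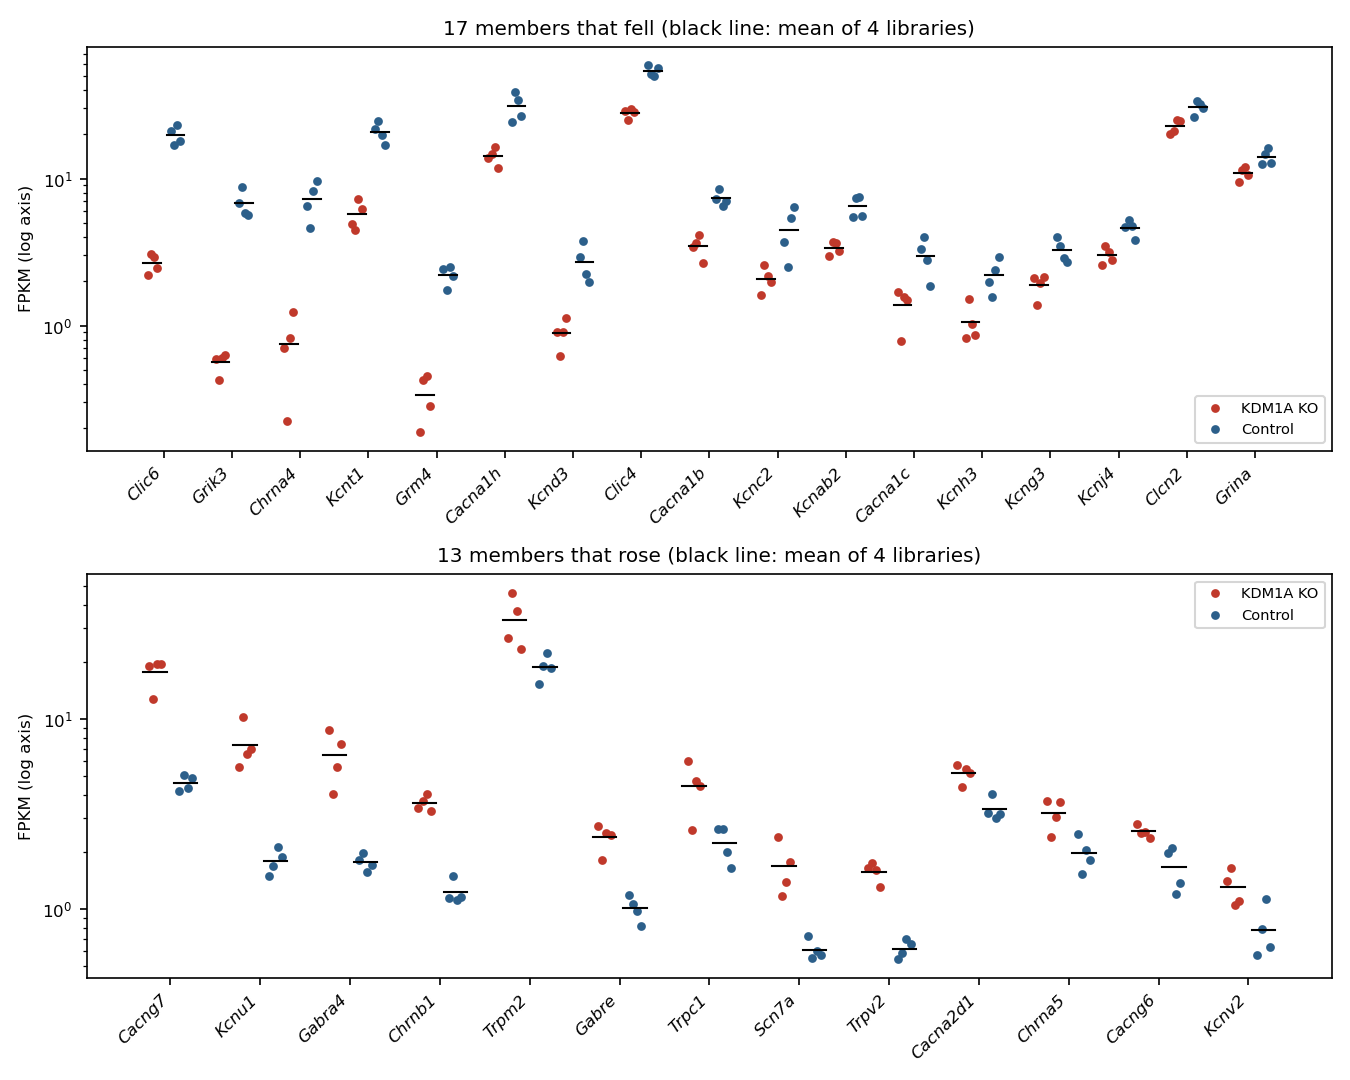
FPKM (log axis) of 17 of the 18 members that fell (upper panel) and the 13 that rose (lower panel) in each of the 4 KDM1A KO and 4 Control libraries, with the mean of each group as a black line. The groups are apart in 26 of the 30 members drawn; Kcnc2 overlaps among the falls, and Trpc1, Chrna5 and Kcnv2 overlap among the rises.

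Potassium channels of the Slo family gave 1 fall and 1 rise (12.1% and 25.3% of all genes tested). Kcnt1, which is opened by intracellular sodium, had 4.94, 4.45, 7.27 and 6.22 FPKM in KO replicates 1 to 4, against 21.8, 24.6, 19.7 and 16.8 FPKM in Control replicates 1 to 4. The KO values were all lower (3.62-fold lower mean, log2 change -1.70, SE 0.16, limma adjusted p = 5.41e-05), and its coding entries alone averaged 1.96 ± 0.351 FPKM in KO libraries and 6.33 ± 1.09 FPKM in Control libraries. Kcnu1, the pore subunit of the sperm-specific potassium channel that hyperpolarizes sperm during capacitation, had 5.61, 10.2, 6.55 and 6.94 FPKM in KO libraries, against 1.49, 1.68, 2.13 and 1.88 FPKM in Control libraries. It rose 4.09-fold without overlap (log2 change 1.55, SE 0.16, limma adjusted p = 0.000112), with KO replicate 2 the highest. A coding entry of 1446 bases held 57.8% of the Kcnu1 level in KO libraries. The entry of 3536 bases had 1.88, 0.917, 1.37 and 2.10 FPKM in KO replicates 1 to 4, with KO replicate 2 the lowest. In Control libraries that entry had 0.262, 0.374, 0.307 and 0.229 FPKM. Kcnmb4, an auxiliary beta subunit of large-conductance calcium-activated channels, was not called, at 4.04 ± 0.545 FPKM in KO libraries and 4.40 ± 0.496 FPKM in Control libraries; antisense transcripts overlap it.

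Voltage-gated potassium channels showed 4 falls and 1 rise among 7 tested (12.1% and 25.3% of all genes tested). With equal FPKM totals in all libraries, a scaling described below, Kcnd3 alone of the 4 falls was still called. Kcnd3, the pore subunit of a rapidly inactivating A-type current, had 0.897, 0.624, 0.903 and 1.13 FPKM in KO libraries, against 2.92, 3.75, 2.24 and 1.97 FPKM in Control libraries (3.06-fold lower mean, log2 change -0.96, limma adjusted p = 0.00142). Kcnc2, a channel of fast-spiking neurons, fell to 2.08 ± 0.399 FPKM in KO libraries, against 4.5 ± 1.75 FPKM in Control libraries (log2 change -0.79, limma adjusted p = 0.0209). KO replicate 2 (2.57 FPKM) lay above Control replicate 2 (2.49 FPKM), and the Kcnc2 call was lost without Control replicate 3 (adjusted p = 0.0605). Kcnh3, of the ether-a-go-go family, averaged 1.06 ± 0.313 FPKM in KO libraries and 2.21 ± 0.586 FPKM in Control libraries (log2 change -0.64, limma adjusted p = 0.0113).

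Kcng3, Kcns1 and Kcnv2 encode silent subunits, which modify other potassium channels and carry no current alone. Kcng3 fell, with 1.89 ± 0.355 FPKM in KO libraries and 3.26 ± 0.582 FPKM in Control libraries (log2 change -0.56, limma adjusted p = 0.00978). Kcnv2 rose to 1.3 ± 0.276 FPKM in KO libraries, against 0.780 ± 0.249 FPKM in Control libraries, at an adjusted p of 0.0479 (limma, log2 change 0.37). The Kcnv2 groups overlapped, and the call was lost on leaving out any library except Control replicate 3 (adjusted p 0.0517 to 0.123). Kcns1, the most abundant of the 3, was not called, at 8.74 ± 1.49 FPKM in KO libraries and 7.16 ± 0.493 FPKM in Control libraries (95% interval -0.02 to 0.51). Kcnh2, whose product repolarizes heart muscle, averaged 1.83 ± 0.539 FPKM in KO libraries and 2.59 ± 0.408 FPKM in Control libraries (limma adjusted p = 0.084). Without KO replicate 2, its highest KO value, the Kcnh2 adjusted p was 0.0122, and without any other library it was 0.0865 to 0.204.

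Of the auxiliary subunits, Kcnab2, a cytoplasmic beta subunit of Shaker-type channels, fell 1.92-fold. It had 2.95, 3.72, 3.62 and 3.24 FPKM in KO libraries, against 5.50, 7.41, 7.52 and 5.56 FPKM in Control libraries, and the groups did not overlap (log2 change -0.77, limma adjusted p = 0.00132). With equal totals the Kcnab2 call was lost (log2 change -0.18, adjusted p = 0.509). Its relative Kcnab3 had 8.23, 17, 12.8 and 10.6 FPKM in KO libraries, against 13.2, 14.1, 14.4 and 15.1 FPKM in Control libraries. KO replicate 2 held the highest value of all 8 and the other KO libraries lay below every Control library. Kcnab3 was not called (limma adjusted p = 0.311, 0.0299 without KO replicate 2, and 0.333 to 0.653 without any other library). A retained-intron entry had 8.44 FPKM in KO replicate 2 and 1.66 to 3.49 FPKM in the other KO libraries. The coding entry had 6.57, 8.49, 8.97 and 7.13 FPKM in KO libraries and 9.22 to 9.68 FPKM in Control libraries. Alone it was not called (limma adjusted p = 0.084). Kcne1, a small membrane partner of Kcnq1, was not called at 2.40 ± 0.530 FPKM in KO libraries and 2.24 ± 0.284 FPKM in Control libraries.

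The inward rectifiers, which carry potassium more easily into the cell than out of it, gave 1 fall and no rise in 2 tested (12.1% and 25.3% of all genes tested). Kcnj4 fell to 3.0 ± 0.381 FPKM in KO libraries, against 4.62 ± 0.577 FPKM in Control libraries (log2 change -0.49, limma adjusted p = 0.00811; 0.08 with equal totals). Kcnj15 averaged 2.94 ± 0.453 FPKM in KO libraries and 1.91 ± 0.605 FPKM in Control libraries (limma adjusted p = 0.0591, 0.0342 without KO replicate 2, and 0.0539 to 0.135 without any other library). The K2P background potassium channels were not called: Kcnk5 averaged 5.96 ± 0.448 FPKM in KO libraries and 6.55 ± 0.607 FPKM in Control libraries (adjusted p = 0.363), and Kcnk6 1.45 ± 0.266 FPKM in KO libraries and 2.01 ± 0.206 FPKM in Control libraries (adjusted p = 0.0532). The 4 Kcnk6 values in KO libraries were nevertheless all below those in Control libraries, and without KO replicate 4 the adjusted p was 0.0391, against 0.075 to 0.118 without any other library.

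Sodium channels were few. Scn7a, a sodium sensor that does not open with voltage as its relatives do, rose to 1.69 ± 0.536 FPKM in KO libraries, against 0.613 ± 0.0769 FPKM in Control libraries (log2 change 0.72, limma adjusted p = 0.00356). Scn8a, a channel of axons, had nearly equal means, 1.13 ± 0.440 FPKM in KO libraries and 1.10 ± 0.314 FPKM in Control libraries (95% interval -0.37 to 0.37). Below the minimum, Scn10a averaged 0.142 FPKM in KO libraries and 0.753 FPKM in Control libraries, and the beta subunit Scn2b 0.889 FPKM in KO libraries and 0.194 FPKM in Control libraries, each without overlap. Of 4 sodium channel genes under the minimum, 1 lay wholly higher in KO libraries and 1 wholly lower (28.8% and 9.13% of all such genes).

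Calcium channels were the largest type, with 12 members tested, 3 rises and 3 falls (25.3% and 12.1% of all genes tested). The falls were all in pore-forming alpha subunits, and none of these 3 was still called with equal totals. Cacna1h, a low-voltage-activated T-type channel on chromosome 17 (25374285 to 25433783, minus strand), had 13.9, 14.6, 16.4 and 11.8 FPKM in KO replicates 1 to 4, against 24.1, 38.9, 34.1 and 26.8 FPKM in Control replicates 1 to 4. The groups did not overlap (2.19-fold lower mean, log2 change -1.06, SE 0.16, limma adjusted p = 0.000781). Cacna1b, the N-type channel of nerve terminals, had 3.42, 3.62, 4.15 and 2.66 FPKM in KO libraries, against 7.26, 8.44, 6.53 and 7.05 FPKM in Control libraries, again without overlap (2.11-fold lower mean, log2 change -0.90, limma adjusted p = 0.00054). Cacna1c, the L-type channel of heart and smooth muscle, fell to 1.39 ± 0.411 FPKM in KO libraries, against 2.99 ± 0.892 FPKM in Control libraries (log2 change -0.73, limma adjusted p = 0.0151). Its most abundant transcript entry alone was not called (log2 change -0.41, adjusted p = 0.0606).

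The rises among calcium channel genes were in auxiliary subunits. Cacng7, a gamma-type subunit that also acts as an auxiliary protein of AMPA receptors, is on chromosome 7 (3332955 to 3368221, plus strand). It had 19.0, 12.7, 19.5 and 19.5 FPKM in KO replicates 1 to 4, against 4.17, 5.09, 4.34 and 4.88 FPKM in Control replicates 1 to 4. KO replicate 2 was the lowest KO value but still above all Control values (3.82-fold higher mean, log2 change 1.71, SE 0.14, limma adjusted p = 3.13e-05). Cacna2d1, which promotes transport of channels to the membrane and binds gabapentin, rose to 5.21 ± 0.592 FPKM in KO libraries, against 3.36 ± 0.447 FPKM in Control libraries (log2 change 0.51, limma adjusted p = 0.00619), but was not called with small RNAs removed (adjusted p = 0.106). Cacng6, another gamma-type subunit, rose to 2.57 ± 0.178 FPKM in KO libraries, against 1.66 ± 0.443 FPKM in Control libraries (log2 change 0.44, limma adjusted p = 0.0245). The Cacng6 call was lost without KO replicate 1 (adjusted p = 0.0554) or 3 (0.057), without Control replicate 3 (0.0668) or 4 (0.0628), and with small RNAs removed (0.138).

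The remaining calcium channel genes were not called. Cacnb3, a cytoplasmic beta subunit, averaged 9.55 ± 0.462 FPKM in KO libraries and 10.3 ± 0.908 FPKM in Control libraries, and Cacng4, an AMPA receptor auxiliary subunit like Cacng7, 5.79 ± 0.636 FPKM in KO libraries and 5.25 ± 0.979 FPKM in Control libraries (adjusted p = 0.472). Cacnb1, the beta subunit of skeletal muscle, averaged 2.15 ± 0.281 FPKM in KO libraries and 2.92 ± 0.550 FPKM in Control libraries (adjusted p = 0.0773, 0.0352 without Control replicate 1, and 0.0774 to 0.177 without any other library). The pore subunits Cacna1a and Cacna1d and the auxiliary subunit Cacna2d2 had log2 changes of 0.23, -0.03 and 0.04. Cacng8, also an AMPA receptor auxiliary subunit, stayed under the minimum at 0.850 FPKM in KO libraries and 0.109 FPKM in Control libraries, without overlap. Of 7 calcium channel genes under the minimum, 3 lay wholly higher in KO libraries and 1 wholly lower (28.8% and 9.13% of all such genes). For all 12 tested calcium channel genes together the summed level was 67.8 ± 4.65 FPKM in KO libraries and 74.7 ± 9.53 FPKM in Control libraries.

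CLIC proteins, which exist both as soluble proteins and in membranes, gave 2 falls among 3 tested (12.1% of all genes tested fell). Of these falls, Clic6 was still called with equal totals and Clic4 was not (log2 change -0.22). Clic6, on chromosome 16 (92485736 to 92541243, plus strand), had 2.19, 3.06, 2.95 and 2.48 FPKM in KO replicates 1 to 4, against 21.2, 16.9, 23.0 and 18.1 FPKM in Control replicates 1 to 4. The groups were far apart (log2 change -2.50, SE 0.12, limma adjusted p = 4.69e-06). Clic4, the most abundant member that was called, had 28.9, 25.2, 29.5 and 28.4 FPKM in KO libraries, against 58.8, 51.3, 49.8 and 56.9 FPKM in Control libraries. It fell 1.94-fold without overlap (log2 change -0.93, SE 0.08, limma adjusted p = 5.15e-05). Clic1 was not called and had close means, 11.2 ± 0.717 FPKM in KO libraries and 11.4 ± 2.83 FPKM in Control libraries (95% interval -0.35 to 0.36). Summed over the 3 genes, the CLIC level was 41.8 ± 1.13 FPKM in KO libraries and 85.4 ± 6.20 FPKM in Control libraries.

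CLC chloride channels and transporters varied less. Clcn2, a plasma membrane chloride channel whose loss in mice leads to degeneration of germ cells, had 20.1, 20.9, 24.9 and 24.6 FPKM in KO libraries, against 26.0, 33.5, 31.9 and 30.3 FPKM in Control libraries. It fell by 0.41 on the log2 scale without overlap (limma adjusted p = 0.0138), but had a log2 change of 0.28 with equal totals. Its single coding transcript entry, also its most abundant, averaged 9.44 ± 0.433 FPKM in KO libraries and 10.5 ± 1.09 FPKM in Control libraries. That entry alone was not called (log2 change -0.13, limma adjusted p = 0.314). Its non-coding entries together averaged 13.2 ± 2.18 FPKM in KO libraries and 20.0 ± 2.30 FPKM in Control libraries. Clcn2 also shares bases with Polr2h on the opposite strand. The endosomal and lysosomal exchangers Clcn3, Clcn5, Clcn6 and Clcn7 were not called, with log2 changes of 0.05, 0.14, 0.09 and 0.08. Clcn6, the most abundant of these 4, averaged 23.2 ± 6.25 FPKM in KO libraries and 21.4 ± 4.27 FPKM in Control libraries, with a 95% interval of -0.36 to 0.54. Clcn1, the chloride channel of skeletal muscle, was not called either (log2 change -0.12), and non-coding entries held most of its level.

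TRP genes held 3 rises and no fall among 7 tested (25.3% and 12.1% of all genes tested). Trpv2, a cation channel activated by heat and stretch, had 1.64, 1.75, 1.60 and 1.3 FPKM in KO libraries, against 0.544, 0.585, 0.693 and 0.653 FPKM in Control libraries (2.54-fold higher mean, log2 change 0.67, limma adjusted p = 0.000581). The groups were apart. Trpc1 rose to 4.45 ± 1.41 FPKM in KO libraries, against 2.23 ± 0.493 FPKM in Control libraries (log2 change 0.73, limma adjusted p = 0.0191); KO replicate 2 (2.60 FPKM) lay below Control replicates 1 (2.65 FPKM) and 2 (2.63 FPKM). The Trpc1 call was lost without KO replicate 3 (adjusted p = 0.0543), Control replicate 3 (0.0512) or Control replicate 4 (0.0524), and with small RNAs removed (0.097).

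Trpm2, named for a channel opened by ADP-ribose under oxidative stress, had 26.7, 46.4, 37.0 and 23.4 FPKM in KO libraries, against 15.3, 18.9, 22.2 and 18.5 FPKM in Control libraries (log2 change 0.76, limma adjusted p = 0.0166). The groups did not overlap, but the call was lost without KO replicate 3 (adjusted p = 0.0512). Its only entry in the table is a retained-intron transcript that also covers small RNA genes, so this value says nothing of the coding transcript. Trpc4ap, which encodes a protein that binds a TRP channel and no channel itself, was the most abundant member, at 60.3 ± 5.68 FPKM in KO libraries and 51.0 ± 1.88 FPKM in Control libraries (log2 change 0.23, limma adjusted p = 0.0526, 0.0282 without KO replicate 4, and 0.0646 to 0.139 without any other library). Trpm7, a channel fused to a protein kinase and needed for magnesium balance, was not called at 36.6 ± 3.31 FPKM in KO libraries and 34.0 ± 3.02 FPKM in Control libraries. The row with the symbol Trpc2 averaged 39.0 ± 3.61 FPKM in KO libraries and 35.7 ± 1.35 FPKM in Control libraries; its identifier belongs to a readthrough locus that shares exons with Xndc1, so the level cannot be assigned to Trpc2. Trpv4, an osmosensitive channel, had a log2 change of -0.02.

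**Figure D3:**
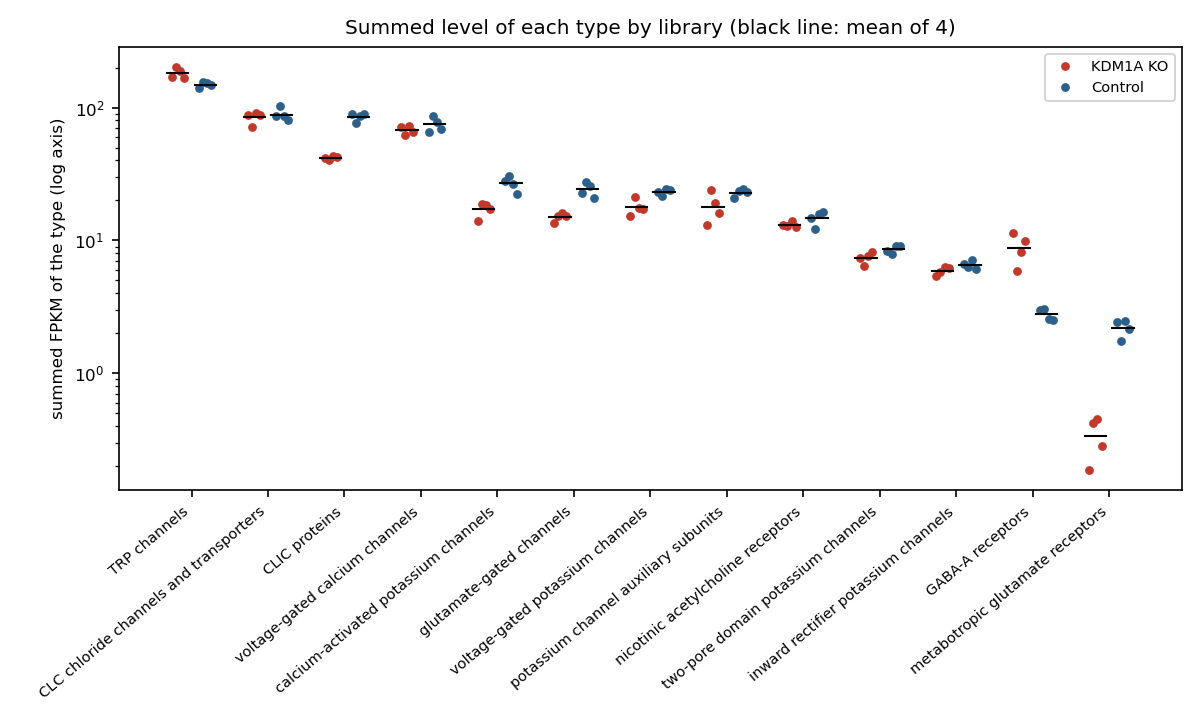
Summed FPKM (log axis) of the tested members of 13 of the channel types in each of the 4 KDM1A KO and 4 Control libraries, with group means as black lines and types ordered by level. The sums of CLIC proteins, both glutamate types, and the types named calcium-activated and voltage-gated potassium channels lie lower in all KO libraries. Those of GABA-A receptors and TRP channels lie higher. The calcium-activated type holds Kcnt1, which is opened by sodium and fell, Kcnu1, which rose, and Kcnmb4, which was not called. The glutamate-gated type includes Grina, which is no receptor subunit, and Grik5, which was not called. The metabotropic type is Grm4 alone.

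Over the 14 types, falls outnumbered rises in 7. Summed levels of the types spread unequally among libraries. The GABA-A sum ran from 5.85 to 11.5 FPKM in KO libraries and from 2.51 to 3.05 FPKM in Control libraries, with KO replicate 2 the lowest KO library. The TRP sum was 182 ± 15.9 FPKM in KO libraries and 149 ± 6.12 FPKM in Control libraries, and Trpm2, Trpc2 and Trpc4ap are included in it. The sum over all 59 members was 484 ± 17.7 FPKM in KO libraries and 541 ± 22.3 FPKM in Control libraries.

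**Figure D4:**
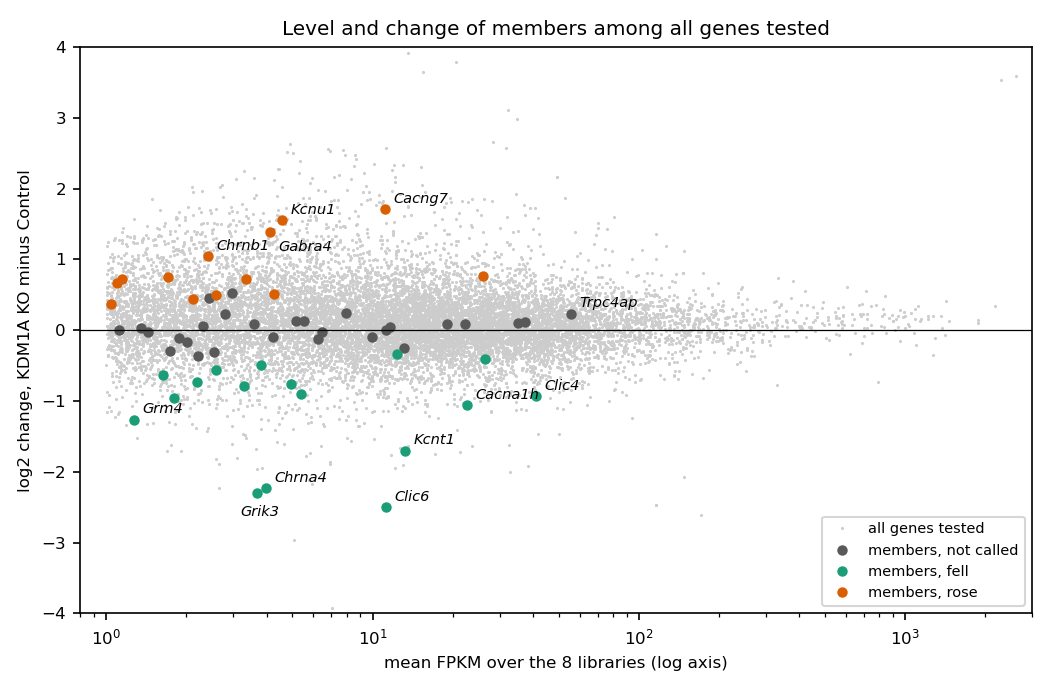
Log2 change (y axis, KDM1A KO minus Control on log2(FPKM + 1)) against mean FPKM over the 8 libraries (x axis, log scale) for 58 of the 59 members (large points) over all 13483 genes tested (small grey points; 7 genes lie beyond the axes). Members that fell by more than 1 lie between 1 and 30 FPKM, and Clic4 is the called member of highest level.

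Promoter sequence is shown for the member with the largest fold fall, for another of the neuronal genes that fell and for the largest rise on the log2 scale, among those whose window holds no annotated exon. Each is the 250 bases before the gene's RefSeq start on GRCm38.p6, 5′ to 3′ on the gene's strand, with GGGCGG or its complement CCGCCC in capitals. This is the GC box, the core sequence bound by Sp-family factors. The windows are chr4:125490446-125490695 (plus strand) for Grik3, chr2:24763153-24763402 (minus strand) for Cacna1b and chr7:3332575-3332824 (plus strand) for Cacng7, whose RefSeq start lies 130 bases before the GENCODE start.
Grik3: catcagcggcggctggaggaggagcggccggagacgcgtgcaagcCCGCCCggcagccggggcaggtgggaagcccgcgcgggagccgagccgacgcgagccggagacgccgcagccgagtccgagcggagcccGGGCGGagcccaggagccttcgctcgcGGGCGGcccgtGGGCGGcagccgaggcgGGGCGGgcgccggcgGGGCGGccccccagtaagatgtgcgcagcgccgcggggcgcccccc
Cacna1b: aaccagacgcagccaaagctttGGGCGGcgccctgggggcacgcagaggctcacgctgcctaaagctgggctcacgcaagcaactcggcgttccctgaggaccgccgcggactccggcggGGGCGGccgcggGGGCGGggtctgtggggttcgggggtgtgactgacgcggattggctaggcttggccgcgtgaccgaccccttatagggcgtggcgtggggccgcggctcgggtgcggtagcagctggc
Cacng7: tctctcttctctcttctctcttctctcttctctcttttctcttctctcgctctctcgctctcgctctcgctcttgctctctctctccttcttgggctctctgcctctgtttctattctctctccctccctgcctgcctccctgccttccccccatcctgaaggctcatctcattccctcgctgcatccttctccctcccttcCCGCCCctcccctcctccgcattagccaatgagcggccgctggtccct

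The Grik3 window was 82% G and C and held 6 GC boxes, the Cacna1b window was 72% G and C with 3, and the Cacng7 window was 58% G and C with 1, after a long run of repeated pyrimidines. RefSeq windows were found for 45 of the 59 members, among them 11 of the 18 that fell and 11 of the 13 that rose. GGGCGG on either strand was present in 9 of 11 windows of members that fell, 8 of 11 that rose and 13 of 23 that were not called, against 42.7% of 17491 windows of protein-coding genes. The median share of G and C in these windows was 72.0%, 58.0% and 62.8%, against 55.2% for protein-coding genes. The part of this base content in the GGGCGG matches was not tested. The core of the RE1 element of neuronal genes occurred on neither strand of the 45 windows and in 6 of 17491 windows of protein-coding genes. TATAAA occurred in 4 of the 45 (12.4% of windows of protein-coding genes) and CACGTG in 4 (6.64% of windows of protein-coding genes). These are matches of letters within the windows only.

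**Figure D5:**
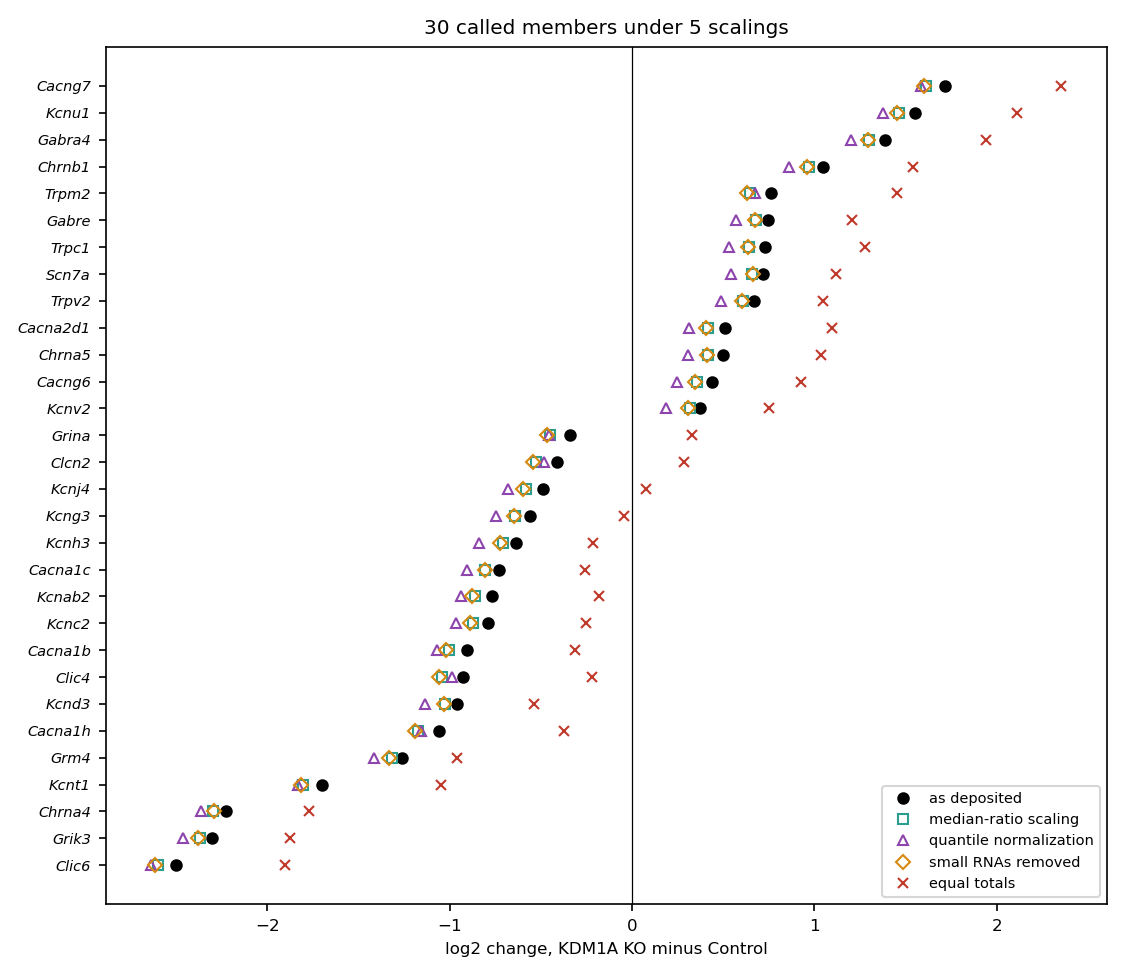
Log2 change (x axis, KDM1A KO minus Control) of 30 of the 31 called members under 5 scalings of the libraries: FPKM as deposited, median-ratio scaling, quantile normalization, small RNAs removed, and equal totals. The first 4 lie close together; with equal totals all points move to the right and Clcn2, Grina and Kcnj4 cross 0.

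Directions depended on how the libraries were scaled for the smaller falls. One entry, the small RNA Mir5105, had 232148 to 583133 FPKM in KO libraries (29.4% to 52.7% of their summed FPKM) and 653764 to 1362140 FPKM in Control libraries (61.3% to 77.1%). With all totals made equal, the median log2 change of all genes moved from 0.09 to 0.74 and that of the members from 0.00 to 0.56. Then 31 members rose (70.8% of all genes) and 7 fell (1.12%), so the split of calls turned round, and 35 of the 59 members lay below the median of all genes, against 37 as deposited. The falls still called included Clic6, Grik3, Chrna4, Kcnt1, Grm4 and Kcnd3. With median-ratio scaling 10 members rose and 21 fell (19.5% and 18.2% of all genes), with quantile normalization 9 and 22 (19.7% and 19.6%), and with small RNAs removed 8 and 20 (16.8% and 13.5%). The 18 falls were called under each of these 3. In the setting with small RNAs removed, the FPKM totals of the remaining genes were also made equal. That setting ended the calls of 5 rises, Cacna2d1, Cacng6, Chrna5, Kcnv2 and Trpc1. Quantile normalization ended 4 of these 5 (not Cacna2d1), and median-ratio scaling ended Cacng6, Chrna5 and Kcnv2.

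Other channel, pump and synaptic genes outside the symbols of the set gave a background of related function. Of 257 listed, 157 were found and 97 tested, of which 29 rose, 23 fell and 45 were not called. Their median log2 change was 0.10. Over all genes tested 25.3% rose and 12.1% fell, shares to be set beside the counts of each list below. Among 18 intracellular and store-operated calcium channel genes, 6 rose and 7 fell. Itpr3, a receptor that releases calcium from the endoplasmic reticulum, fell to 10.2 ± 1.06 FPKM in KO libraries, against 21.9 ± 1.94 FPKM in Control libraries (log2 change -1.04, limma adjusted p = 6.63e-05), while Ryr3, a ryanodine receptor, rose to 1.93 ± 0.441 FPKM, against 0.590 ± 0.109 FPKM in Control libraries (log2 change 0.87, limma adjusted p = 0.00062). Tpcn1, a cation channel of endosomes and lysosomes, fell by 0.74 on the log2 scale (limma adjusted p = 0.00103).

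Of 25 other plasma membrane channel genes, 8 rose and 6 fell. Clca3, in the table's own symbol a chloride channel accessory gene, had 2.89 ± 0.362 FPKM in KO libraries and 0.0751 ± 0.0317 FPKM in Control libraries (log2 change 1.85, limma adjusted p = 4.69e-06). Ano6, a calcium-activated scramblase and channel, rose to 4.85 ± 0.679 FPKM in KO libraries, against 1.64 ± 0.224 FPKM in Control libraries. Hcn2, a channel of pacemaker current, fell to 0.557 ± 0.177 FPKM in KO libraries, against 2.88 ± 0.831 FPKM in Control libraries (log2 change -1.30, limma adjusted p = 0.000376). Among 17 ion pumps and cotransporters 4 rose and 3 fell. The potassium-chloride cotransporter Slc12a4 rose by 0.66 on the log2 scale, whereas its relatives Slc12a5 and Slc12a7 fell by 0.53 and 0.33.

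Of 23 receptor scaffold and auxiliary genes, 5 rose and 4 fell, and 14 were not called. Nlgn2, an adhesion protein of inhibitory synapses, fell to 3.97 ± 0.210 FPKM in KO libraries, against 11.1 ± 2.31 FPKM in Control libraries (log2 change -1.26, limma adjusted p = 0.000144), and Dlg3, a scaffold of NMDA receptors, rose to 9.89 ± 0.521 FPKM, against 4.53 ± 0.621 FPKM in Control libraries. Gabarapl1, of the GABA-A receptor-associated protein family that works in autophagy, rose by 0.71 on the log2 scale. Among 11 genes of transmitter synthesis and transport 5 rose and 2 fell. Ddc, which makes dopamine and serotonin from their amino acid precursors, rose to 12.5 ± 5.20 FPKM in KO libraries, against 1.86 ± 0.140 FPKM in Control libraries (log2 change 2.17, limma adjusted p = 9.02e-05). Maoa, which breaks down monoamines, rose to 4.96 ± 0.263 FPKM, against 1.80 ± 0.0575 FPKM in Control libraries, and Glul, glutamine synthetase, fell by 0.52. The metabotropic GABA receptor subunit Gabbr1 rose to 7.74 ± 1.56 FPKM in KO libraries, against 2.75 ± 1.26 FPKM in Control libraries (log2 change 1.26, limma adjusted p = 0.00205), and the histamine receptor Hrh1 fell by 0.43.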

How the data were processed

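The authors deposited FPKM values for 45550 transcript entries in 8 libraries. TopHat, Bowtie, Cufflinks and Cuffdiff with the mm10 build are named in the submitters' processing notes; versions, annotation and use of strand are not stated. Kits are stranded per the labels' protocols. FPKM are estimates divided among transcripts, so overlapping or similar genes are uncertain, among them Kcnd3, Kcnab3 and Kcnmb4, which have antisense genes.

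Entries were summed by gene identifier to 17589 genes. Genes averaging at least 1 FPKM were tested on log2(FPKM + 1) with limma 3.58.1 in R 4.3.3 (lmFit, eBayes with intensity trend, group only, two-sided), with Benjamini-Hochberg adjustment over all 13483 genes; a call is an adjusted p under 0.05. Log2 changes are KO minus Control on that scale, which understates changes of low genes; folds are ratios of mean FPKM. The script was tested on simulated data. Positions came from GENCODE M21 and promoters from RefSeq. Depth was inferred from low FPKM in steps of 1 fragment (61.5% to 66.4% of such values within 0.1 of a whole number) and only described. Cell numbers and counts were not analysed here.

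The members, gene lists and rule for named genes were chosen with earlier results of these data known. By that rule, in each channel type the called members without overlap (up to 6 rises and 6 falls) and the 2 most abundant members are named, with up to 3 called genes of each other list; most other tested members are given by their values as well, and members under the minimum were picked after their values were seen. Alternatives were other pseudocounts, filters, scalings, thresholds and model options, single transcript entries, a replicate block, and leaving out each library. Some members counted in the totals are not reported here.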

Additional observations from a re-analysis of the deposited data

Results flagged for a closer look

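In 120 groups of 4 libraries (59 members and Kdm1a in each condition), the highest or lowest library stood apart from the other 3 by more than Dixon's critical value in 4 of them; chance gives this in about 1 group in 20. Cacng7 had 12.7 FPKM in KO replicate 2, while the other KO libraries had 19.0 to 19.5 FPKM; without that library Cacng7 remained called. Clcn7 had 22.3 FPKM in KO replicate 4 and 18.4 to 18.9 FPKM in the other KO libraries. Chrnb1 had 1.5 FPKM in Control replicate 2 and 1.12 to 1.16 FPKM in the other Control libraries. Kdm1a had 92.0 FPKM in Control replicate 3 and 48.1 to 54.0 FPKM in the other Control libraries.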

How the results depend on the processing

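The limits are the low level of most members, the FPKM unit, 4 libraries per group and KO replicate 2. As deposited 13 members rose and 18 fell, 29 and 23 of the other channel genes, and 3417 and 1635 of all genes. Without a filter, 34 members rose and 34 fell (of 133), 45 and 35 of the other channel genes, and 4642 and 1997 of all genes. With a minimum mean level of 5 FPKM, 2 members rose and 8 fell (of 24), 18 and 11 of the other channel genes, and 2164 and 1180 of all genes (9514). With equal totals, 31 members rose and 7 fell, 60 and 5 of the other channel genes, and 9549 and 151 of all genes, and 1 type in place of 7 had more falls than rises. Among members called as deposited or with equal totals, the log2 changes of Clcn2 (0.28), Grina (0.33), Kcnj4 (0.0761), Trpv4 (0.60) and Cacnb3 (0.56) changed sign. Members called in neither fit, among them Kcnk5 and Kcnab3, changed sign too, as every gene was shifted upward by construction. With small RNAs removed, 8 members, 16 of the other channel genes and 2242 of all genes rose. Quantile normalization gave 2648 falls of all genes and array weights 2763. At an adjusted p under 0.01, 8 members rose and 13 fell, 15 and 13 of the other channel genes, and 2087 and 848 of all genes. Leaving out 1 library at a time gave 9 to 13 rises and 16 to 20 falls among members, and 2658 to 3855 rises and 1170 to 2025 falls among all genes. Same-numbered libraries did not deviate together (correlations 0.22, -0.12, -0.13 and -0.09), so the numbers give no pairing; a fit with a replicate block gave 13 rises and 18 falls, of which 12 and 18 were shared, and 2983 and 1408 over all genes.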

Other observations

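Among the 74 members under the minimum level, 21 had every KO library above every Control library, 19 had every KO library below, and 34 overlapped. These were 28.4% and 25.7% of the 74, against 28.8% and 9.13% of the 4106 genes under the minimum in the whole table. Of 8 TRP genes at these levels, 5 lay higher in all KO libraries and none lower. Trpm1, a channel of retinal bipolar cells, averaged 0.887 FPKM in KO libraries and 0.163 FPKM in Control libraries, and Trpc7 0.729 FPKM in KO libraries and 0.220 FPKM in Control libraries. Of 20 voltage-gated potassium channel genes, 9 lay lower in all KO libraries and 1 higher. The silent subunits Kcns2 and Kcns3 averaged 0.0597 and 0.130 FPKM in KO libraries, against 0.701 and 0.573 FPKM in Control libraries, and Kcnq1 averaged 0.0676 FPKM in KO libraries and 0.252 FPKM in Control libraries. These genes were chosen after their values were seen and were not among the 59 tested.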
